A study of Bos taurus and Bos indicus x Bos taurus with 938 samples.

Results

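The rarely open regions of the mixed segment are 18074 regions, 5.97% of all those for which open chromatin was called in single bovine blastomeres. The regions carry running numbers only. The segment runs from V274101 to V294500 and follows 29 long blocks, in each of which neighbouring regions tend to be open in the same blastomeres. Of its 20400 regions, the members are the 88.6% that were open (value 1) in under 20% of all blastomeres in the table (at most 19.9%), and the other 2326 are commonly open. Rarity was the usual state in the whole table, where 98.2% of all regions and 99% of the long-block regions were under the same limit.

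The study assayed chromatin in embryos made by in vitro fertilisation (IVF) and by somatic cell nuclear transfer (SCNT), at cell numbers around the activation of the embryonic genome. All oocytes came from ovaries collected at an abattoir and were matured in vitro. Each embryo was taken apart, every blastomere went into a tube of its own with its embryo recorded, and the amount of Tn5 transposase was set for each batch. The table holds 398 IVF and 421 SCNT blastomeres. IVF embryos are labelled Bos indicus x Bos taurus and were made with thawed semen. SCNT embryos are labelled Bos taurus, and the kind of donor cell was not stated in the labels used here. The series' design text speaks of pooled embryos, while each title names 1 blastomere of 1 embryo. All IVF titles begin with 15286 or 15287 and all SCNT titles with 15243 or 15244, so type cannot be told apart from breed label or title prefix.

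In ATAC-seq, Tn5 inserts sequencing adapters where DNA is accessible, so that fragments mark open chromatin. A single cell offers only a few copies of each locus, and many accessible sites yield no fragment, so a missing call can be a closed site or a missed one. In nuclear transfer a somatic nucleus is placed in an oocyte from which the chromosomes were removed, and its chromatin has to be reset by the ooplasm, whereas in fertilisation the gamete genomes are remodelled. Bovine embryos start most of their own transcription at about 8 cells. The regions have no coordinates, sequences or gene names in the files used here, so no sequence is shown and the members are described by number.

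The embryo was the replicate, and embryos with at least 1000 open calls entered the comparisons: 66, 21 and 14 IVF embryos and 40, 24 and 21 SCNT embryos of 2, 4 and 8 cells. The median embryo had 23957, 38942 and 105109.5 calls over all regions in the IVF groups and 7631, 16119 and 56419 in the SCNT groups. Because SCNT embryos had fewer calls, levels are given as relative coverage: the open calls observed divided by those expected from each blastomere's total and each region's overall frequency, with 1 as the average. Over the whole table, the most similar pair of blastomeres from different embryos was blastomere H of SCNT embryo 19 and blastomere G of SCNT embryo 20. Both are 8-cell embryos, and the pair shared open regions with a Jaccard index (shared open regions over all regions open in either) of 0.39. Over the members the index of this pair was 0.158 with all of its 407 and 369 member calls. The index rises with the number of calls, so this value cannot be set against thinned ones. With member calls thinned to 200 per blastomere the median over 198765 pairs was 0.0101. The 8 highest pairs were then at 0.143 to 0.105, and this pair was not among them. Results that rest on this pair are also given without it. The labels do not say which embryos came from the same collection of oocytes, so p-values measure the spread between these embryos only.

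Members were open in 0.611% to 19.9% of blastomeres, with a median of 22 blastomeres (2.69%) and quartiles of 13 and 37, values that chose them and are given as description. Of the members, 1759 were open in under 1% of blastomeres, 15170 in 1 to 10%, and 6.34% of the members in 10 to 20%. Together the members held 551277 calls, 5.8% of all calls, while the 2326 commonly open regions of the same segment held 10.4%. Just inside the limit were V276932, V277400, V285917, V289570 and V293556, each open in 19.9% of blastomeres. Just outside it were 7 regions open in 1 blastomere more, among them V275581 and V286099. Regions this close to the limit differed in how they were split between the types: V285917 was open in 28.6% of IVF and 11.6% of SCNT blastomeres and V275581 in 11.8% and 27.8%, while V276932 was even, at 19.8% and 20%.

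Nearly all members were open somewhere in both types. A call in at least 1 IVF and 1 SCNT blastomere was found for 17817 members (98.6%), against 98.8% of the rarely open long-block regions. No SCNT call was found for 1.23% of members, of which 86 had at least 10 IVF calls, and no IVF call for 34 members (0.188%), of which 15 had at least 10 SCNT calls. Among members open in at least 10% of embryos, and by calls plus 1 relative to each type's total calls, V292926 was the most uneven, open in 1 IVF and 35 SCNT blastomeres. Those SCNT calls included 12 in 9 of the 21 8-cell embryos against 3.54 expected, and none was found in 14 IVF 8-cell embryos against 5.27 expected, where a count of 0 allows up to 3 calls. By the same measure V275310 was the most even, open in 60 IVF and 37 SCNT blastomeres, since IVF blastomeres had more calls in all.

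As a whole the members were open less often in SCNT than in IVF embryos at 2 and 4 cells, while at 8 cells the embryos of both types overlapped almost fully. At 2 cells relative coverage was 0.803, 1.02 and 1.33 (lowest, median and highest of 66 embryos) in IVF and 0.625, 0.879 and 1.27 (40 embryos) in SCNT. Means were 1.03 ± 0.109 (SD, n = 66) and 0.90 ± 0.162 (SD, n = 40), a difference of -0.128 ± 0.0289 (SE, permutation test, adjusted p = 4.5e-05 from the smallest p that the permutations can give). The ranges overlapped, and 32 of 40 SCNT embryos lay below the IVF median.

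At 4 cells the separation was clearer. IVF embryos ran from 0.937 to 1.47 with a median of 1.07, and SCNT embryos from 0.679 to 1.03 with a median of 0.848. The means of 1.10 ± 0.137 (SD, n = 21) and 0.865 ± 0.0847 (SD, n = 24) differed by -0.236 ± 0.0346 (SE, permutation test, adjusted p = 4.5e-05), and all 24 SCNT embryos lay below the IVF median. At 8 cells the means were 1.05 ± 0.235 (SD, n = 14) and 1.02 ± 0.239 (SD, n = 21), a difference of -0.0248 ± 0.0816 (SE, permutation test, adjusted p = 0.77), with 11 of 21 SCNT embryos below the IVF median. Without the co-open run, a set of neighbouring members described further on, the 8-cell difference was -0.069 ± 0.0271 (SE, permutation test, adjusted p = 0.0714). In plain shares, members held 5.89%, 6.33% and 6.09% of an IVF embryo's calls on average at 2, 4 and 8 cells and 4.87%, 4.68% and 5.70% of an SCNT embryo's. The 2326 commonly open regions of the segment were also lower in SCNT at 2 and 4 cells, with mean relative coverages of 0.886 and 0.825 against 1.14 and 1.16 in IVF. At 8 cells they were at 1.07 in SCNT and 0.997 in IVF. The lower level at 2 and 4 cells was thus not particular to the members.

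**Figure D1:**
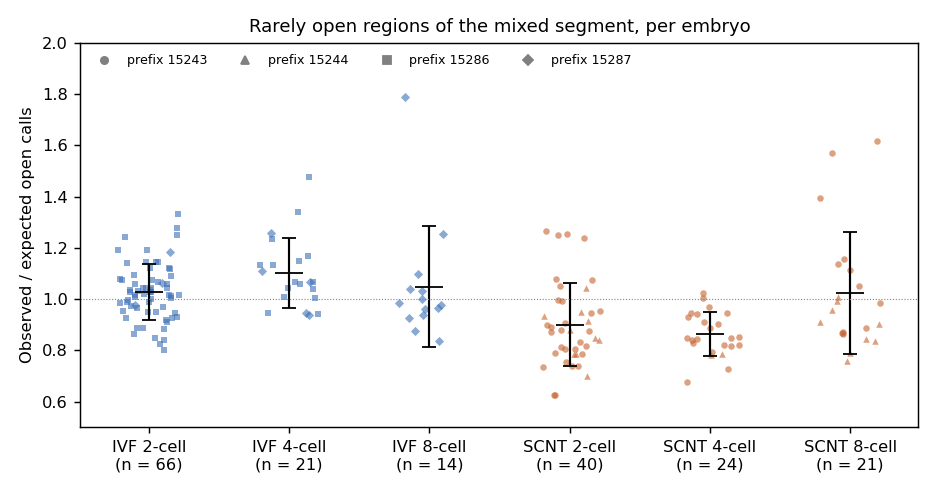
Relative coverage of all 18074 members (vertical axis, observed over expected open calls) in each embryo, in 6 groups of type and cell number (horizontal axis); each point is an embryo, its marker gives the title prefix, and bars are the mean and SD. SCNT embryos lie lower at 2 and 4 cells (means 0.90 and 0.865, against 1.03 and 1.10), and at 8 cells both types spread widely, with single embryos up to 1.79 in IVF and 1.62 in SCNT.

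Between cell numbers, some differences in relative coverage passed in both types, in comparisons that share groups. In IVF it was 0.0736 higher at 4 than at 2 cells (permutation test, adjusted p = 0.0296), a call that was not stable. The direction turned with depth from commonly open regions (-0.182) and within the 8 embryos of prefix 15287 (-0.0106). The call was also lost with members open in under 10% of blastomeres, as the median over blastomeres, in embryos with every blastomere, after thinning, without the co-open run and without blastomeres high in it (adjusted p from 0.0579 to 0.478, permutation tests). In SCNT it was 0.125 higher at 8 than at 2 cells (adjusted p = 0.0314) and 0.16 higher at 8 than at 4 cells (adjusted p = 0.00459). Both SCNT differences narrowed to 0.0394 and 0.0425 (adjusted p = 0.326 and 0.245, permutation tests) without the run. Both calls were also lost with depth from commonly open regions (adjusted p = 0.798 and 0.252) and in embryos with every blastomere (adjusted p = 0.317 and 0.311, permutation tests). The call for 8 against 2 cells was further lost with at least 4000 calls, with members open in under 10% of blastomeres, as the median over blastomeres, without blastomeres high in the run and within prefix 15244 (adjusted p from 0.126 to 0.631, permutation tests). The change from 4 to 8 cells was 0.212 larger in SCNT than in IVF (permutation test of the difference, p = 0.0227, adjusted over 3 contrasts 0.0681), which did not pass.

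Embryos of other cell numbers were few and are described only. IVF embryos of 3, 6 and 7 cells averaged 0.98 (n = 6), 1.02 (n = 6) and 1.08 (n = 2). SCNT embryos of 5, 6 and 7 cells averaged 0.983 (n = 5), 0.848 (n = 5) and 0.889 (n = 3), and those of 12 and 14 cells 0.944 (n = 2) and 0.932 (n = 3). All of these lay within the ranges of the compared groups of the same type.

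A short part of the segment behaved unlike the rest. When the members were cut in order of number into 361 stretches of 50 or 51, 20 neighbouring stretches from V275090 to V277070 opened together in the same blastomeres, and they are called the co-open run here (defined after the values were seen, by a correlation of at least 0.3). Across 419 blastomeres with at least 8000 calls, the relative coverage of any 2 of these stretches correlated with a median Pearson r of 0.627 (lowest 0.399), against 0.021 over all other pairs of stretches, where the points of one blastomere share its library. The run holds 5.56% of the members and 7.32% of the member calls. Members make up only 50.7% of its 1981 regions, against 92.7% of the rest of the segment, and 976 of the segment's 2326 commonly open regions lie in it.

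The run was open to very different degrees in single blastomeres. Over 780 blastomeres with at least 1000 calls its relative coverage ran from 0 to 45.8 with a median of 0.596, and 47 blastomeres exceeded 5. The other members together ran only from 0.438 to 1.68 in the same blastomeres. The highest was a blastomere of an IVF 8-cell embryo that had only 1328 calls in all, where 5.08 calls in the run were expected. Next came a blastomere of an SCNT 16-cell embryo (22.5) and blastomere H of SCNT 8-cell embryo 19 (16.2), so values above 5 were found in both types.

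High values of the run went with shallow libraries. Above 5 were 9.09% of the blastomeres with 1000 to 2500 calls, 13.8% of those with 2500 to 5000, 6.7% with 5000 to 10000, 2.91% with 10000 to 20000 and none with 20000 or more. Whether depth has a part in these values was not tested.

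By embryo, the run had its lowest median in SCNT 4-cell embryos and was very uneven among 8-cell embryos. The lowest, median and highest embryos were at 0.272, 1.26 and 6.71 in IVF 4-cell embryos and at 0.136, 0.424 and 1.13 in SCNT 4-cell embryos. At 2 cells the medians were 0.769 in IVF and 0.515 in SCNT, with highest values of 3.27 and 5.18. At 8 cells the medians were 0.678 and 0.811, with highest values of 10.7 in IVF and 8.21 in SCNT embryo 17. All SCNT 4-cell embryos lay below the IVF 4-cell median, while at 2 and 8 cells the types overlapped almost fully.

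**Figure D2:**
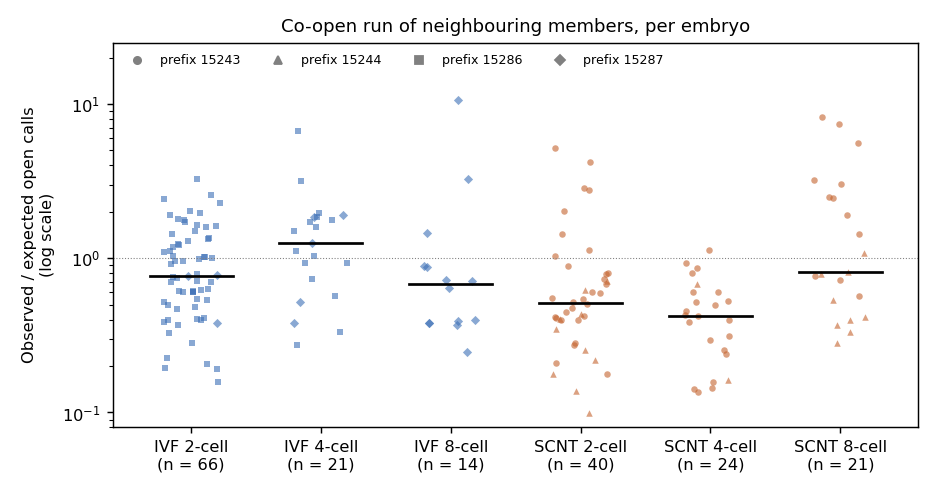
Relative coverage of the members of the co-open run per embryo (vertical axis, observed over expected open calls, log scale) in the 6 groups; points are embryos, markers the title prefix and lines the group medians. SCNT 4-cell embryos end at 1.13, and the SCNT 8-cell embryos above 1.08 all carry the prefix 15243.

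Stretch by stretch, the run's difference at 4 cells passed the test. Stretches were tested with a quasi-Poisson score test moderated with limma and bounded by an exact binomial test, adjusted over all 5931 stretches of rarely open regions of the table, a test added after the region results were seen. In SCNT against IVF 4-cell embryos 17 of the run's 20 stretches were open less often and none more often, with a median log2 ratio of -1.5. Over all stretches 4.33% passed in that direction and 9.46% in the other. The run's stretches were joined because they open together, so they are not independent and their count is not a number of separate results. Without the 47 blastomeres above 5, 16 passed, with a median of -1.37. At 2 and 8 cells none of the 20 passed, with 1 and 4 at an unadjusted p under 0.05 and median log2 ratios of -0.16 and 1.00.

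Within SCNT, 15 of the 20 stretches, which are not independent, were open more often at 8 than at 4 cells (median log2 ratio 2.17), out of 16 of all 361 member stretches (4.43%). Over all stretches 0.303% passed, 0.287% more often and 0.0169% less often. None passed without the 47 blastomeres above 5, nor without the most similar pair of SCNT blastomeres, although the median log2 ratio stayed at 1.38 and 2.11. The SCNT 8-cell embryos of prefix 15243 were at 3.15 ± 2.58 (SD, n = 12), from 0.569 to 8.21 with 5 above 3, while those of prefix 15244 were at 0.558 ± 0.274 (SD, n = 9), none above 1.08. The prefixes differed in the same direction at 2 cells, with means of 1.06 (n = 30) and 0.341 (n = 10).

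Over all members, the run included, neighbours were open together less than neighbours in the long blocks. Members with consecutive numbers were open in the same blastomere at 1.70 times the expected rate, against 1.91 times for rarely open neighbours in the long blocks. At a distance of 10 the values were 1.19 and 1.48, at 100 they were 1.04 and 1.34, and at 1000 they were 1.02 and 1.28. Joint opening of members thus came close to 1 within about 100 numbers, while in the long blocks it was still above 1 at 1000. These are descriptions over 419 blastomeres, whose libraries all pairs share.

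Many member stretches nevertheless followed one of the blocks elsewhere in the table. In IVF blastomeres of prefix 15286 (25.3% of the 419), 150 of 361 stretches, with 7501 members (41.5%), had a correlation of at least 0.3 with 1 block and at least 0.1 above that with any other. Of these, 37 followed block P and the rest 1 of 25 long blocks. Block P is the run of regions from V298201 to V302200, after the segment. In blastomeres that were not used to draw these links (prefix 15287, 33.9% of the 419), the same block ranked first for 75 (66.4%) of the long-block stretches and for 26 (70.3%) of those that follow P. The median correlation went from 0.474 to 0.268 for the long-block stretches, and from 0.436 to 0.353 for those that follow P. In SCNT blastomeres (40.8% of the 419) the medians were 0.157 and 0.284.

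Some blastomeres with at least 2000 calls in the long blocks have almost no calls in a whole long block (under 0.1 of the expected calls). They are 38.8% of all compared IVF and 1.71% of all compared SCNT blastomeres. Shallower blastomeres could not be counted as lacking a block but are included in these totals, so the 2 shares are not on equal terms. Members that follow the missing block were also open less often in the blastomeres that lack it. In prefix 15286, used for the links, 1828 calls were observed against 4982 expected, a ratio of 0.367, while where the block was present it was 1.10. In prefix 15287, not used for them, the ratio was 0.438, while where the block was present it was 1.00. Stretches without a link were at 1.01 and 1.06 in blastomeres lacking any block, so a missing block did not go with fewer calls there.

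Across all 361 member stretches, more passed as less often open than as more often open in SCNT at each cell number. At 2 cells 50 passed (13.9%, against 15.3% of all 5931 stretches), 14 open more often and 36 less often (10.6% and 4.72% of all stretches). At 4 cells 58 passed (16.1%, against 13.8%), 11 more often and 47 less often (9.46% and 4.33% of all). At 8 cells 76 passed (21.1%, against 25.4%), 26 more often and 50 less often (12.8% and 12.6% of all). The members' total shares were thus near the background, and their split leaned to less often open. At 8 cells 7.2% of member stretches passed as more and 13.9% as less often open, against 12.8% and 12.6% of all. At 4 cells the 47 include stretches of the co-open run, which are not independent, so their count is not a number of separate results. The median log2 ratios of member stretches were -0.17, -0.24 and -0.05, beside 0.02, 0.04 and -0.01 over all stretches.

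This balance depends on how depth is set. With depth taken from the commonly open regions of the long blocks, the median of all stretches moved to -0.25, -0.18 and 0.18. The members' split became 5 more and 94 less often at 2 cells, 5 and 44 at 4 cells, and 12 and 7 at 8 cells. Because all stretches moved, these counts alone are not a result about the members. The median of member stretches was then -0.44, -0.46 and 0.14, so at 2 and 4 cells it lay below that of all stretches under both ways of setting depth, and at 8 cells the split turned.

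**Figure D3:**
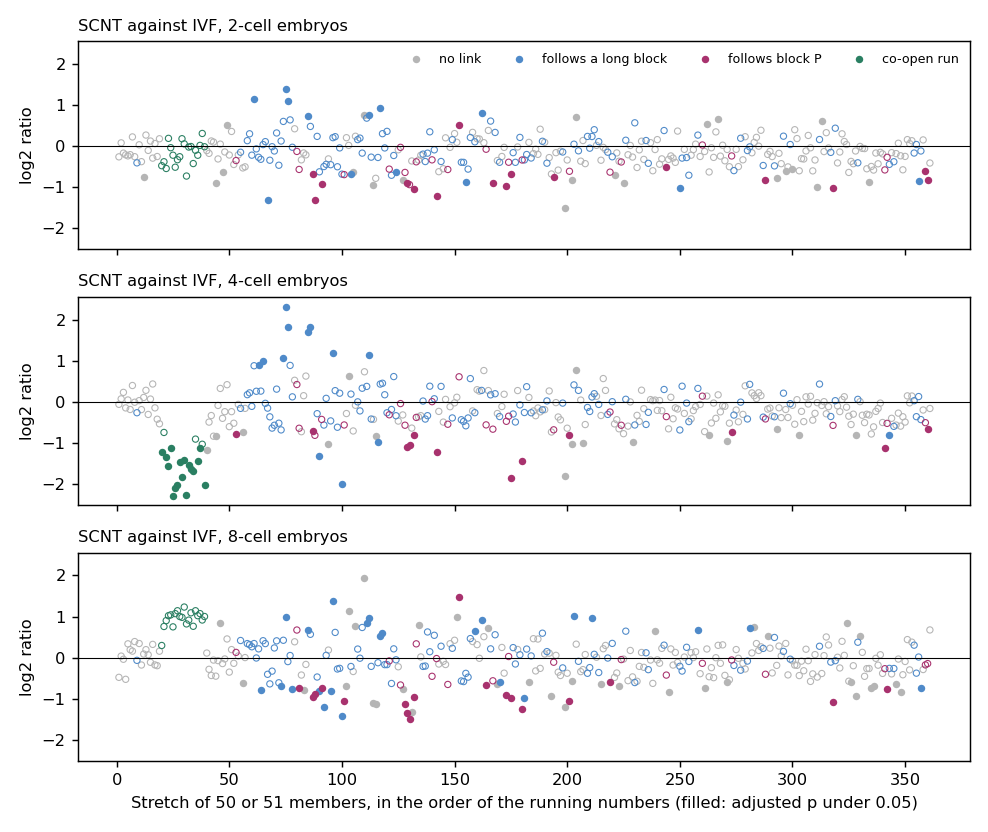
Log2 ratio of SCNT to IVF relative coverage (vertical axis) for each of 361 stretches of 50 or 51 members in order of their numbers (horizontal axis), in panels for 2, 4 and 8 cells; colours mark stretches that follow block P, a long block or neither and the co-open run, and filled points passed at an adjusted p under 0.05. Stretches that follow P lie mostly below 0 in all panels, and the run lies below 0 at 4 cells (median -1.5) and above 0 at 8 cells (median 1.00).

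The members that follow block P had lower relative coverage in SCNT at all 3 cell numbers. These 1850 members had relative coverages of 0.193, 1.11 and 2.31 (lowest, median, highest) in IVF 2-cell embryos and 0.278, 0.673 and 1.67 in SCNT 2-cell embryos. The medians were 1.15 and 0.764 at 4 cells, and 1.09 and 0.731 at 8 cells. Of the SCNT embryos, 35 of 40, 24 of 24 and 21 of 21 lay below the IVF median. The differences in means were -0.448 ± 0.069, -0.425 ± 0.074 and -0.334 ± 0.048 (SE), given without a test because the stretches were grouped after the values were seen.

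Singly tested, 15 of the 37 stretches that follow P passed as less often open in SCNT 2-cell embryos, 12 in 4-cell and 17 in 8-cell embryos, while 1, 0 and 1 passed as more often open. Over all stretches 4.72%, 4.33% and 12.6% passed as less often open. With depth from commonly open regions 25, 11 and 4 of the 37 passed as less often open, so at 8 cells most of these calls were lost. That scale also moved the median of all stretches, so these counts alone are not a result about the members that follow P. Of the 78 stretches of block P's own rarely open regions, 29, 46 and 56 were open less often and none more often. Their median log2 ratios were -0.75, -0.90 and -0.96, against -0.60, -0.57 and -0.60 in the members that follow P. The 37 stretches were picked for following P, so a shared direction is partly built in and is not separate support. Members that follow a long block averaged 1.01, 1.03 and 0.962 in IVF embryos of 2, 4 and 8 cells and 0.973, 0.997 and 0.99 in SCNT embryos, so in this group the types lay within 0.04 of each other. Members without a link and outside the run averaged 1.02, 1.06 and 1.02 in IVF embryos and 0.901, 0.877 and 0.957 in SCNT embryos.

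**Figure D4:**
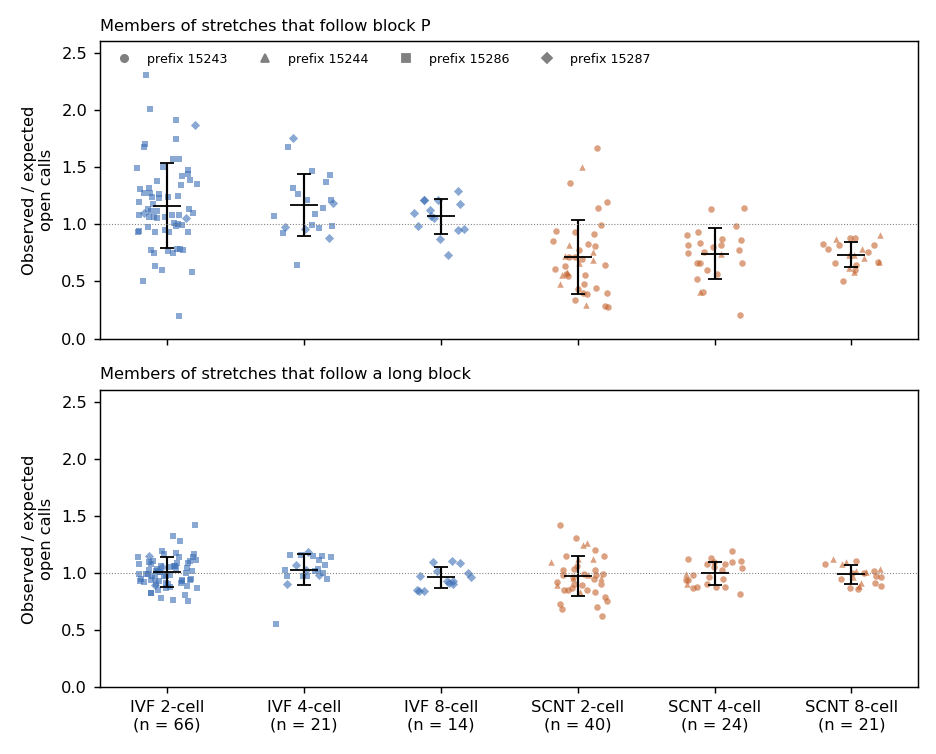
Relative coverage (vertical axis, observed over expected open calls) per embryo of the members in stretches that follow block P and in stretches that follow a long block, in the 6 groups (horizontal axis); points are embryos and bars the mean and SD. In the members that follow P, SCNT means are 0.714, 0.742 and 0.734 against 1.16, 1.17 and 1.07 in IVF, while in those that follow a long block they differ by less than 0.04.

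At all 3 cell numbers, 6 stretches passed as less often open in SCNT, 4 of them following P and 2 with no link, and 3 passed as more often open, each following a long block. The stretches named here were chosen after their values were seen. V286066 to V286122, which follows no block, was open less often throughout, with log2 ratios of -1.5, -1.81 and -1.2 (limma-moderated score test, adjusted p = 2.62e-05, 2.18e-06 and 0.00492). Its median relative coverage was 1.26, 1.39 and 0.906 in IVF embryos of 2, 4 and 8 cells and 0.226, 0.178 and 0.239 in SCNT embryos, though single SCNT 2-cell embryos reached 3.18. V284788 to V284839, which follows P, had log2 ratios of -0.68, -1.86 and -0.97 (limma-moderated score test, adjusted p = 0.0258, 0.000209 and 0.00275).

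The stretch V281316 to V281365, which follows a long block, went the other way, with log2 ratios of 0.77, 1.15 and 0.96 (limma-moderated score test, adjusted p = 0.0131, 0.000595 and 0.000912). Its median relative coverage was above 1 in SCNT, at 1.22, 1.59 and 1.34, while IVF medians were 0.617, 0.728 and 0.74. V279432 to V279481 also passed at each cell number, with log2 ratios of 1.40, 2.32 and 1.00. At 2 cells, however, its SCNT median of 0.162 was below the IVF median of 0.373, and 1 SCNT embryo was at 13.9, so the pooled ratio there is not the direction of most embryos.

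Tested one by one, few members passed between the types at 2 and 4 cells. A region was tested if open in at least 10% of the embryos, which left 6499 members (36%) of 91058 regions. At 2 cells 8 members (0.123%, against 0.0362% of all tested regions) passed, each open more often in SCNT. Of the 33 regions that passed in the whole table, 32 were open more often and 1 less often, so this direction was not particular to the members. At an unadjusted p under 0.05 were 2.95% of members. At 4 cells none passed (against 0.0011% of all), with 4.6% of members at an unadjusted p under 0.05 and none by the score test alone. At 8 cells 1.98% of tested members passed (against 1.59%), 75 with more and 54 with fewer calls in SCNT. The median log2 ratios were 2.86 and -2.56, without the 8 and 6 of them that had no call in one type. The split by direction over all tested regions is not given here, so the 75 and 54 are not set against it. With depth from commonly open regions 17 and 4 passed at 8 cells, and the median log2 ratio of all tested regions moved from 0.02 to 0.19. Without the IVF 8-cell embryo whose titles give no number, 48 were open more often and 66 less often, so that the larger side changed.

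V277839 had the smallest p of the 2-cell members. It was open in 20 of 40 SCNT embryos, with 21 calls against 6.89 expected, and in 4 of 66 IVF embryos, with 5 calls against 26.9 expected, a log2 ratio of 4.03 ± 1.00 (SE, adjusted p = 2.77e-05, limma with exact bound). At 8 cells it was open in 17 of 21 SCNT embryos (48 calls, 16.9 expected) and in 1 of 14 IVF embryos. V284146, which follows a long block, was open in 19 of 40 SCNT and 6 of 66 IVF 2-cell embryos, a log2 ratio of 3.60 ± 0.84 (SE, limma, adjusted p = 0.00737). V277983 (4.12 ± 1.00) and V276204 (3.73 ± 0.89), the latter in the co-open run, had 13 calls each in SCNT and 3 and 4 in IVF embryos (limma, adjusted p = 0.00321 and 0.00737).

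These 2-cell calls were lost without the IVF blastomeres that lack a block. Without the blastomeres that lack one, which left 41 IVF embryos, none of the 8 passed, and the log2 ratios were 2.64 for V277839, 2.34 for V277983, 2.15 for V284146 and 2.37 for V276204. Without the 47 blastomeres with high coverage of the run, 5 members passed at 2 cells.

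All 8 members open more often in SCNT at 2 cells were also called at 8 cells in other embryos, in the same direction, where 1.15% of the tested members were. They are V276204, V276913, V277561, V277839, V277983, V278109, V284084 and V284146. At 4 cells all 8 were again open more often in SCNT, 6 at an unadjusted p under 0.05. Of all tested members, 39.2% had that direction. Embryos of 4 and 8 cells did not enter the 2-cell test. They did count in the filter on open embryos and in each region's overall frequency, so they are not a fully separate check. Of the blastomere values of the 8 members together, 22.2% were open in SCNT 2-cell embryos and 3.81% in IVF 2-cell embryos, 15.3% and 3.89% at 4 cells, and 30.8% and 5.83% at 8 cells. A call in at least 1 of the 8 was found in 30 of 40, 20 of 24 and 21 of 21 SCNT embryos and in 16 of 66, 11 of 21 and 7 of 14 IVF embryos. The 8 members were chosen by the test on 2-cell embryos, so these 2-cell values are description only.

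The IVF calls in these 8 members were spread unevenly over embryos, most of all at 8 cells. Of the 48 calls in IVF 8-cell embryos, 36 were in the embryo without a number, in which 56.2% of the values were open and all 8 members had a call. A single IVF 2-cell embryo had 9 of the 39 IVF 2-cell calls, in 7 of the 8 members, against 0.977 expected, and the 4-cell embryo with the most had 7 of 23. IVF embryos of 6 and 7 cells had 2 calls in each group, 0.735% and 1.79% of values, while the 2 of 5 cells had 10 calls (12.5%) and the 1 of 13 cells had 20 (22.7%). Some IVF embryos thus had shares in the range of the SCNT groups. Whether those embryos match their labels was not tested.

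At 4 cells the member with the smallest p was V278109, which follows P and did not pass (adjusted p = 0.169, limma with exact bound). It had 11 calls in 8 of 24 SCNT embryos, against 5.99 expected, and none in 21 IVF embryos, against 11.5 expected. At 8 cells, where it was among the 75, it was open in 18 of 21 SCNT embryos (44 calls) and in 1 of 14 IVF embryos (6 calls).

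The 4 members with the smallest p at 8 cells that were open more often in SCNT were V277983, V284146, V277561 and V284084. V284084 was open in 18 of 21 SCNT embryos (38 calls, 10.2 expected) and in 1 of 14 IVF embryos (2 calls, 14.5 expected), a log2 ratio of 4.76 ± 1.10 (SE, limma, adjusted p = 0.000124). V277983 was open in 16 of 21 and 1 of 14 embryos, V284146 in 20 of 21 and 1 of 14, and V277561 in 18 of 21 and 2 of 14, with log2 ratios of 4.42 ± 0.93, 3.93 ± 0.81 and 3.66 ± 0.72 (SE, limma, adjusted p = 8.17e-05, 8.17e-05 and 8.43e-05). SCNT embryos mostly had a call in each of them and IVF embryos mostly had none.

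The 4 with the smallest p on the other side were V288429, V280059, V290195 and V277664. V280059, which follows P, was open in 13 of 14 IVF embryos (31 calls, 17.5 expected) and in 1 of 21 SCNT embryos (1 call, 12.4 expected), a log2 ratio of -4.46 ± 1.5 (SE, limma, adjusted p = 0.0162; 0.072 with depth from commonly open regions). V277664 had 32 calls in 10 of 14 IVF embryos and 1 in 21 SCNT embryos, at -4.47 ± 1.5 (SE, limma, adjusted p = 0.0192), and it had no call in the SCNT embryos of 2 and 4 cells, where 3.45 and 3.66 were expected. V288429 (46 and 5 calls, -2.75 ± 0.69) and V290195 (34 and 2 calls, -3.56 ± 1.10) also passed (limma, adjusted p = 0.0134 and 0.018). At 4 cells all 4 were again lower in SCNT relative to the expected calls, and at 2 cells all but V290195 were (2 calls, 3.67 expected, against 5 and 15.2 in IVF).

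Summed over each list, the called members show how embryos of other cell numbers compare. The lists were chosen by a test on 8-cell embryos, so the values at 8 cells are only a description. Embryos of 2 and 4 cells did not enter that test. They did count in the filter on open embryos and in each region's overall frequency, so they are not fully separate from the choice. Embryos of the remaining cell numbers entered neither that test nor the fit of the region frequencies. The 75 members had median relative coverages of 0.778 and 0.826 in IVF embryos of 2 and 4 cells and of 1.36 and 1.33 in SCNT embryos. The 54 members had medians of 0.676 and 0.926 in IVF and 0.281 and 0.30 in SCNT at 2 and 4 cells. Both lists thus lay in the same direction before the 8-cell stage.

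The 54 members had higher medians in IVF embryos of 6, 7 and 8 cells than in those of 2 and 4. Their median was 1.83 in 6 IVF 6-cell embryos, 2.43 in 2 of 7 cells and 1.97 in 14 of 8 cells (lowest 0.742, highest 3.11), and the single IVF embryos of 13 and 16 cells were at 1.9 and 0.548. In SCNT embryos it was 0.46, 0.334 and 0.418 at 5, 6 and 7 cells (n = 5, 5 and 3) and 0.179 at 8 cells. The 2 SCNT embryos of 12 cells and the 3 of 14 cells were at 1.5 and 1.67 and at 1.59 to 2.01, in the range of IVF 8-cell embryos, while the SCNT 16-cell embryo was at 0.425. Within the SCNT 8-cell group embryo 65 and 1 other were at 1.05 and 1.19, both of prefix 15244, and all others were at 0.492 or lower. The 75 members were at 0.651 in the median SCNT 14-cell embryo, 1.02 in the median of the 12-cell embryos and 1.25 in the 16-cell embryo. The SCNT 8-cell median of 2.16 is high by the choice of the list, so values below it do not show a fall after 8 cells. No test was made of these small groups. All IVF embryos of 6, 7 and 8 cells carry prefix 15287, while 63 of the 66 of 2 cells and 16 of the 21 of 4 cells carry 15286. The higher medians in IVF therefore cannot be told apart from the title prefix. All SCNT embryos of 12 and 14 cells carry prefix 15244, as do 9 of the 21 of 8 cells.

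**Figure D5:**
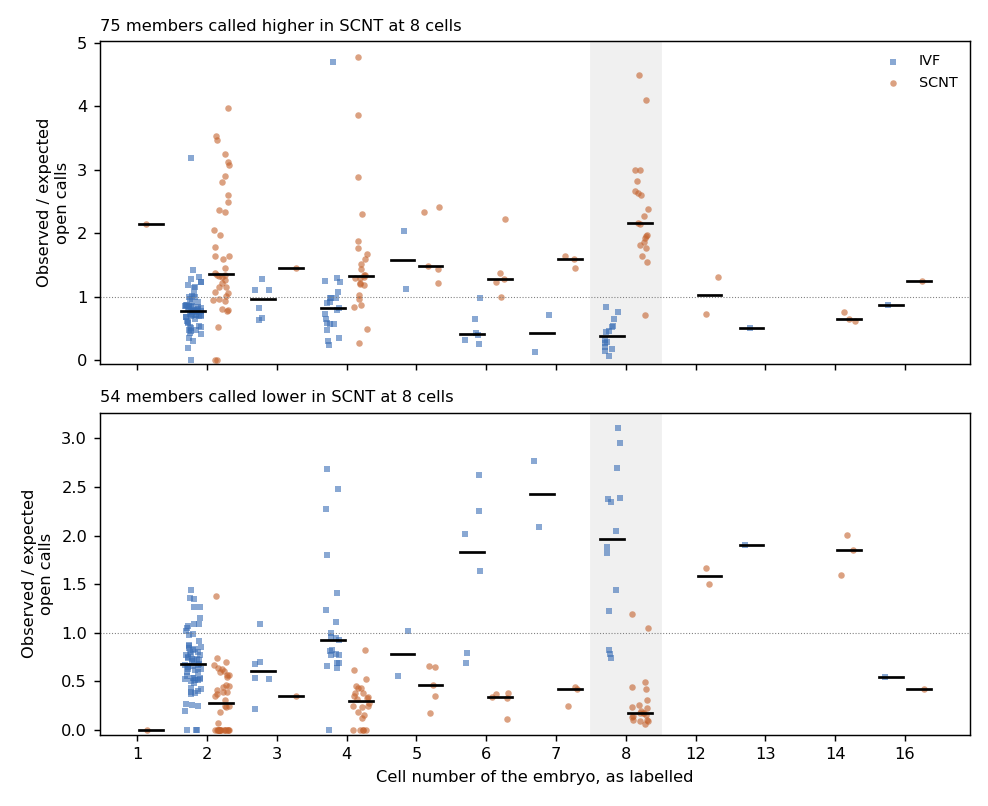
Relative coverage per embryo (vertical axis, observed over expected open calls) of the 75 members called as more often open in SCNT 8-cell embryos (top) and of the 54 called as less often open (bottom), by the labelled cell number (horizontal axis); squares are IVF and circles SCNT embryos, black lines are medians, and the shaded band marks the 8-cell embryos on which the lists were chosen. In the bottom panel the SCNT medians stay at or under 0.46 up to 8 cells and are 1.58 and 1.85 at 12 and 14 cells, and the IVF medians are 1.83 or higher from 6 to 8 cells. In IVF embryos the cell number goes together with the title prefix.

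Agreement between cell numbers was looser for the whole lists. Of the 75 members, 50 had the same direction at 2 cells and 58 at 4 cells, where 37.4% and 39.2% of all tested members had it. Of the 54, 45 and 54 had the same direction, where 62.6% and 60.7% had it. Over all tested members with calls in both types, the log2 ratios of SCNT to IVF correlated between 2 and 4 cells with Pearson r = 0.279 (n = 4698 members), between 2 and 8 cells with 0.193 (n = 5263) and between 4 and 8 cells with 0.318 (n = 5290). Over the 361 stretches the values were 0.528, 0.502 and 0.238. These are across regions, which are not independent, and the embryos compared differ between cell numbers while the region factors of the model are shared.

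Between cell numbers within a type, members were called mainly in IVF embryos. At 4 against 2 cells V285479 alone passed (0.0154% of tested members, against 0.00439% of all regions), with 6.23% of members at an unadjusted p under 0.05. It was open in 14 of 21 4-cell and 6 of 66 2-cell embryos, a log2 ratio of 2.89 ± 0.49 (SE, adjusted p = 0.0351, limma with exact bound), and over its alternatives the adjusted p went up to 1. Against 2 cells, 669 members (10.3%, against 10.1%) passed in IVF 8-cell embryos, 393 open more often and 276 less often. The median log2 ratios were 2.30 and -2.48, without the 9 and 49 with no call in one group. So the members' total share was that of the whole table. The split by direction over all tested regions is not given here, so the 393 and 276 are not set against it.

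This IVF comparison cannot be told apart from the title prefix, since 63 of the 66 2-cell embryos carry 15286 and all 14 8-cell embryos 15287. Within 15287, with 3 2-cell embryos, no member passed, and without the blastomeres lacking a block 20 passed. With depth from commonly open regions the split turned to 99 more and 2041 less often, while the median log2 ratio of all tested regions moved from -0.17 to -1.14. Without the embryo that has no number 359 passed as more often open, and the share less often open went from 41.3% to 32.8% of those that passed.

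V292990 was open in 9 of 14 IVF 8-cell embryos (30 calls, 12.6 expected) and in 1 of 66 2-cell embryos (1 call, 15.2 expected), a log2 ratio of 5.18 ± 0.98 (SE, limma, adjusted p = 0.000105). V293814, V286849 and V294239, the others with the smallest p, were each open in 12 of 14 8-cell embryos and in 5, 5 and 7 of 66 2-cell embryos, at log2 ratios of 2.89, 3.12 and 2.90. Among members open less often, V283019, which follows P, was open in 34 of 66 2-cell, 14 of 21 4-cell and 1 of 14 8-cell IVF embryos, a log2 ratio of -4.04 ± 1.2 for 8 against 2 cells (SE, limma, adjusted p = 0.000538). V284813, which also follows P, V286079 and V283559 were at -1.69, -3.76 and -3.03. In SCNT embryos V283019 had 3, 3 and 7 calls at 2, 4 and 8 cells, against 5.00, 5.34 and 12.1 expected.

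No member passed in IVF 8- against 4-cell embryos or in the 3 SCNT comparisons (limma with exact bound, 0 of 91058 regions in all 4, and no member by the score test alone). At an unadjusted p under 0.05 were 9% of tested members for IVF 8 against 4 cells, and 1.03%, 3% and 3.71% for SCNT 4 against 2, 8 against 2 and 8 against 4 cells. The members with the smallest p were V283019 (16 calls in 14 of 21 IVF 4-cell and 2 in 1 of 14 8-cell embryos), V285925, V285088 and V284135. V285925 had 14 calls in 10 of 24 SCNT 4-cell embryos and none in 40 of 2 cells, where 5.68 were expected. V285088, which follows P, had 9 calls in 8 of 40 SCNT 2-cell embryos and none in 21 of 8 cells, where 13.6 were expected, and in IVF 8-cell embryos it had 24 calls in 10 of 14. V284135 had 2 calls in 24 SCNT 4-cell embryos and 35 in 17 of 21 SCNT 8-cell embryos.

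By stretches, 92 of 361 passed for IVF 8 against 2 cells (25.5%, against 30.1%), 38 open more often and 54 less often (14.4% and 15.7% of all stretches). For IVF 4 against 2 cells 7 passed (1.94%, against 1.13%), 6 more often and 1 less often (0.776% and 0.354% of all). For IVF 8 against 4 cells 2 passed (0.554%, against 1.6%), 1 in each direction (0.759% and 0.843% of all). In SCNT, 3 passed for 4 against 2 cells (0.831%, against 0.371%), 1 more often and 2 less often (0.152% and 0.219% of all), and 3 for 8 against 2 cells (0.831%, against 2.98%), also 1 and 2 (0.371% and 2.61% of all).

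These stage splits follow the depth scale. With depth from commonly open regions all 318 stretches that passed for IVF 8 against 2 cells were open less often, while the median log2 ratio of all stretches moved to -1.06. For IVF 4 against 2 cells the split became 1 more and 90 less often (median of all -0.52), and for IVF 8 against 4 cells 31.3% of stretches passed, all less often (median of all -0.54). In SCNT it became 1 and 29 for 4 against 2 cells (median of all -0.45), 0 and 95 for 8 against 2 cells (-0.64), and none passed for 8 against 4 cells (-0.20).

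Blastomeres of the same embryo shared open members more than blastomeres of different embryos did in 4 of the 6 groups. With member calls thinned to 200 per blastomere, the mean Jaccard index in IVF 8-cell embryos was 0.0215 ± 0.0137 (SD over 267 pairs) within and 0.0124 ± 0.00725 (SD over 3919 pairs) between embryos, and 13 of 14 embryos lay above the mean between embryos. In SCNT 8-cell embryos it was 0.0222 within and 0.0129 between, with 19 of 21 embryos above. At 4 cells it was 0.0157 and 0.0114 in IVF (16 of 19 embryos above) and 0.0156 and 0.0115 in SCNT (8 of 12 above). In these 4 groups the permutation p was 0.0001, the smallest that 10000 permutations can give (adjusted p = 0.00015). The SCNT 4-cell call was lost with calls thinned to 500 or 100 (permutation p = 0.222 and 0.413) and with members open in under 10% of blastomeres (adjusted p = 0.0557). Rarely open long-block regions, also thinned to 200 and described only, were higher within embryos in IVF 4-cell (0.000801 and 0.000707), IVF 8-cell (0.00114 and 0.000839), SCNT 2-cell (0.00113 and 0.000665) and SCNT 8-cell embryos (0.000939 and 0.000734). In IVF 2-cell (0.000617 and 0.000673) and SCNT 4-cell embryos (0.000593 and 0.000676) they were lower.

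At 2 cells no excess within embryos passed. In IVF the index was 0.0101 within and 0.0111 between embryos, with 21 of 50 embryos above (permutation p = 0.208). With calls thinned to 500 the IVF index was lower within than between embryos, 0.0239 and 0.0269, and this difference passed (permutation test, adjusted p = 0.0234). In SCNT it was 0.0145 and 0.0112, with 5 of 7 above (permutation p = 0.144, adjusted 0.172). Only 7 SCNT 2-cell embryos had both blastomeres at this depth. The 6 groups gave the same calls without the members of the co-open run, within-embryo means in 8-cell embryos then being 0.0205 in IVF and 0.0196 in SCNT. The difference between 2 and 8 cells was not itself tested.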

How the data were processed

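The table the authors deposited holds 0 or 1 for each of 302830 regions in 819 blastomeres, taken as closed and open calls (not counts), so depth in reads is unknown. The tools named, per the submitters' processing notes, were bedtools, Bowtie2 2.2.6 and FastQC 0.10.1. The build and the rule behind an open call are unstated in the labels and header used here. Columns were tied to titles by their numbers, an inference, and 119 of 938 labelled libraries were not analysed here. The title prefixes and embryo numbers come from the titles. Calls per blastomere ran from 519 to 129163 (median 8221).

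Members, stretches, lists and tests were chosen with earlier results of these data known. The probability of a call was taken as 1 - exp(-br), with b for the blastomere and r for the region, fitted in 20 iterations to the 600 blastomeres of 192 embryos in the compared groups. Calls seen and expected were then added up over each embryo, and 186 embryos were kept. Embryo means were compared by two-sided permutation tests (100000 resamples, Benjamini-Hochberg over 9 comparisons), and sharing by permuting embryo labels within prefix (10000). For regions, a quasi-Poisson score test (both sides) with its dispersion moderated in limma 3.58.1 (R 4.3.3) was bounded from below by an exact binomial p. Its p-values were adjusted over 91058 regions (threshold 0.05), and it was first tested on simulated data, where it missed most changes, drops more than rises. Links used 106 (15286), 142 (15287) and 171 (SCNT) blastomeres. Stretches were tested likewise. Log2 ratios of single regions are left out where a group has no call.

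Named members are up to 4 per direction and comparison with the smallest adjusted p, or the 1 with the smallest p where none passed. Those next to the limit and the most even and uneven between types were also named. The series' other embryos entered no test. Alternatives changed the depth scale, filters, thinning, test and the blastomeres or embryos used. Python 3.11.15 was used with numpy 2.4.6, pandas 2.3.3, scipy 1.17.1 and matplotlib 3.10.9. The limit set beside a 0 is for counting error alone.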

Additional observations from a re-analysis of the deposited data

How the results depend on the processing

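No paired analysis was possible because the embryo numbers are not shared between the groups compared. Differences in relative coverage between SCNT and IVF at 2 and 4 cells kept their direction and passed under every alternative run for them. With depth from commonly open regions the differences were 0.238 for SCNT against IVF at 8 cells, -0.182 and -0.482 for IVF 4 and 8 against 2 cells, and 0.0827 and 0.339 for SCNT 8 against 2 and 4 cells. With members open in under 10% of columns they were 0.00095, 0.037 and -0.0152 for the first 3 of these and 0.108 for SCNT 8 against 2. For IVF 4 against 2 cells the difference was 0.0663 as the median over blastomeres, 0.0604 in embryos with every blastomere, -0.0106 within prefix 15287, 0.0344 without the co-open run, 0.0573 without blastomeres above 5 in the run and 0.276 percentage points after thinning. For IVF 8 against 2 cells it was -0.0252 within prefix 15287, -0.0215 without the run and -0.0512 without those blastomeres, and for IVF 8 against 4 cells -0.108 without them. For SCNT 8 against 2 cells it was 0.0844 with at least 4000 calls, 0.0829 as the median over blastomeres, 0.0921 in embryos with every blastomere, 0.0208 within prefix 15244, 0.0394 without the run and 0.0509 without those blastomeres. For SCNT 8 against 4 cells it was 0.0945 in embryos with every blastomere and 0.0425 without the run. The calls for IVF 4 against 2, SCNT 8 against 2 and SCNT 8 against 4 cells were lost in each setting named for them here, and that for IVF 8 against 2 cells passed with depth from commonly open regions, as did that for IVF 8 against 4 cells without blastomeres above 5.

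The excess of sharing within embryos was -0.00302 in IVF 2-cell embryos thinned to 500 calls, which passed, and 0.00112 thinned to 100. In SCNT 4-cell embryos it was 0.00365 thinned to 500, 0.000579 thinned to 100 and 0.00275 with members open in under 10% of columns, and none of these passed.

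Members called for SCNT against IVF at 2 cells numbered 5 with regions open in at least 5% of embryos, 3 at 25%, 55 by the score test alone, 0 after thinning, 5 with at least 4000 calls, 0 without blastomeres lacking a block and 5 without those above 5 in the run. At 4 cells 1 was called at 25%. At 8 cells 33 were called at 5%, 0 after thinning and 21 with depth from commonly open regions. For IVF 4 against 2 cells 0 were called at 5%, 3 at 25%, 20 by the score test alone and 0 within either prefix, after thinning, with depth from commonly open regions, without blastomeres lacking a block or without those above 5. For IVF 8 against 2 cells, of the members tested in each setting, 10.3% became 22.9% at 25%, 0% within prefix 15287 and after thinning, 32.9% with depth from commonly open regions and 0.521% without blastomeres lacking a block.

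Member stretches called with depth from commonly open regions numbered 99 and 19 for SCNT against IVF at 2 and 8 cells, 91 and 318 for IVF 4 and 8 against 2 cells (and 31.3% of stretches for 8 against 4), and 30, 95 and 0 for SCNT 4 against 2, 8 against 2 and 8 against 4 cells. Without blastomeres lacking a block they numbered 28 for SCNT against IVF at 2 cells, 0 for IVF 8 against 4 cells and 10 and 3 for SCNT 8 against 2 and 4 cells. Within prefix 15286 they were 4 for IVF 4 against 2 cells; within 15287 they were 0, 10 and 0 for IVF 4 against 2, 8 against 2 and 8 against 4 cells; within 15243 they were 1 and 20 for SCNT 4 and 8 against 2 cells; and within 15244 they were 0 for SCNT 8 against 2. Without blastomeres above 5 in the run they were 2.49% of stretches for IVF 8 against 4 cells and 1 and 0 for SCNT 8 against 2 and 4, where 0 also remained without the most similar pair. Without the IVF embryo that has no number 0 were called for IVF 8 against 4 cells.

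Named members kept their direction and side of the threshold in 89.7% of the settings with a value, 17 no longer passed, and V284146 at 8 cells turned to a log2 ratio of -0.61 after thinning to 1000 calls, where few calls are left. A further 60 gave no finite ratio. The causes of these changes were not tested. Shallow libraries limit all values: the lowest embryos had 1310 calls at SCNT 2 cells and 1292 at SCNT 4 cells, and 36% of members were open in enough embryos to be tested.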
